A study of Arabidopsis thaliana with 8 samples.

Results

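COR47 (AT1G20440), COR15A (AT2G42540) and LTI30 (AT3G50970) are 3 Arabidopsis genes of the cold and dehydration response, and their transcripts were followed through a salt stress experiment. They were chosen by name, with earlier results of these data known. Each was read by the brightest probe set that names it. Each gene had 1 such probe set (259570_at for COR47, 263497_at for COR15A and 252102_at for LTI30), so that the 3 genes are 3 of the 22746 non-control probe sets of the array. RNA came from whole Arabidopsis seedlings grown in hydroponic MS medium, and was hybridised to Affymetrix ATH1 arrays in 4 groups of 2 arrays each. The groups were OsSHMT overexpression seedlings (OE) exposed to 150 mM NaCl for 24 h, OE control seedlings without added NaCl, WT seedlings given the same NaCl, and WT control seedlings, all 14 days old. OsSHMT is a rice serine hydroxymethyltransferase, an enzyme that interconverts serine and glycine by passing a carbon unit to or from a folate. In the study's methods the transgene was driven by the constitutive pENTCUP2 promoter in homozygous plants of the Col-0 background, and both OE3 and OE5 are named as the line used for arrays, so that the line is not settled and OE may stand for 1 insertion. No probe set is named for the rice transgene, so the genotype labels could not be checked on the array. Nothing in the labels says that the 2 arrays of a group came from separate cultures, and the p-values measure only the spread between these arrays, which may be technical.

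COR47 and LTI30 encode dehydrins, very hydrophilic proteins that bind water and membranes as cells dry or freeze. COR15A encodes a small chloroplast protein that stabilises membranes during freezing. Genes of this kind are switched on by cold through the CBF transcription factors, and by drought, salt and abscisic acid through factors that bind ABA-responsive elements, which is why they are widely used as markers of cellular dehydration.

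The values are log2 signals, and differences between groups are log2 fold changes. Differences were tested with limma over all 22746 probe sets with a spread shared by the 4 groups, and a difference is called at a Benjamini-Hochberg adjusted p under 0.05. The median signal of an array lay between 6.27 and 6.33 in the WT arrays, while it was 6.10 and 6.32 in OE NaCl and 6.00 and 6.08 in OE control. The 2 arrays of a group were less alike in OE: the SD of their difference over all probe sets was 0.551 in OE NaCl, 0.430 in OE control, 0.116 in WT NaCl and 0.213 in WT control. Centring each array on its median moved the split of calls. In OE minus WT without salt, 69.0% of the calls were higher in OE after centring, against 40.2% as deposited, and in the salt response of OE 49.8% were higher, against 67.7%. Of the markers fixed for the tissue, the 3 measured leaf genes (RCA, LHCB4.1 and LHCB4.2) were bright in every group, with a summed linear signal of 21965 to 22670 in OE NaCl, 23781 to 24499 in OE control, 21148 to 21228 in WT NaCl and 23659 to 23707 in WT control. The 2 measured root hair genes (EXPA7 and EXPA18) were dim, with sums of 51 to 66 in OE NaCl, 73 to 74 in OE control, 40 to 43 in WT NaCl and 44 in WT control. EXPA7 was 0.83 higher in OE than in WT without salt (adjusted p = 0.0267, lost without any one WT array or OE control replicate 2, up to 0.144), and LHCB4.2 was lower after NaCl in WT (-0.55, adjusted p = 0.0426, lost without any one WT array, up to 0.399). The part of these markers in the results for the 3 genes was not tested.

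All 3 genes were higher after NaCl in both genotypes. The estimated response was largest for LTI30, at 4.47-fold in OE and 3.25-fold in WT, while those of COR47 and COR15A lay between 1.57-fold and 2.36-fold. In whole seedlings a change in the number of cells that express a gene and a change in RNA per cell cannot be told apart.

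COR47, an acidic dehydrin, had 12.34 and 12.25 in OE NaCl seedlings and 11.62 and 11.59 in OE control seedlings. It had 12.55 and 12.59 in WT NaCl seedlings and 11.27 and 11.39 in WT control seedlings. The NaCl arrays lay above the control arrays in both genotypes, and the WT arrays spanned the OE arrays on both sides, being lowest without salt and highest with it. The response was 0.69 in OE (95% interval 0.39 to 0.99, 1.61-fold, adjusted p = 0.0221, limma) and 1.24 in WT (0.94 to 1.54, 2.36-fold, adjusted p = 0.00216). Over the 4 possible pairs of a NaCl and a control array, the difference was 0.63 to 0.75 in OE and 1.16 to 1.33 in WT. The WT call was lost without WT NaCl replicate 2 (adjusted p = 0.0535). The OE call was lost without any one of the 4 WT arrays or OE control replicate 1, with adjusted p up to 0.0915, and in a fit to the 4 OE arrays alone (adjusted p = 0.282).

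COR15A had 11.92 and 11.99 in OE NaCl seedlings and 11.37 and 11.24 in OE control seedlings. It had 11.89 and 11.92 in WT NaCl seedlings and 10.81 and 10.64 in WT control seedlings. With salt the 4 arrays of both genotypes came together, and without salt the OE arrays stood above the WT arrays. The response was 0.65 in OE (0.34 to 0.97, 1.57-fold, adjusted p = 0.0330, limma) and 1.18 in WT (0.86 to 1.49, 2.26-fold, adjusted p = 0.00345). Single pairs of arrays gave 0.55 to 0.75 in OE and 1.07 to 1.28 in WT. The WT call was lost without WT control replicate 2 or either WT NaCl array (adjusted p up to 0.0695). The OE call was lost without 7 of the 8 arrays, OE NaCl replicate 1 being the exception (adjusted p up to 0.114), and in a fit to the 4 OE arrays alone (adjusted p = 0.310).

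LTI30, a dehydrin also called XERO2, had 11.25 and 11.13 in OE NaCl seedlings and 9.09 and 8.97 in OE control seedlings. It had 12.20 and 12.09 in WT NaCl seedlings and 10.45 in each WT control array. The 4 groups were far apart, and the OE arrays were the lower ones under both conditions. The response was 2.16 ± 0.13 in OE (SE, 4.47-fold, adjusted p = 0.000274, limma) and 1.70 ± 0.13 in WT (SE, 3.25-fold, adjusted p = 0.000731). Single pairs gave 2.04 to 2.28 in OE and 1.65 to 1.75 in WT. Both calls held without any one array, with adjusted p up to 0.00349 in OE and 0.0213 in WT.

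**Figure D1:**
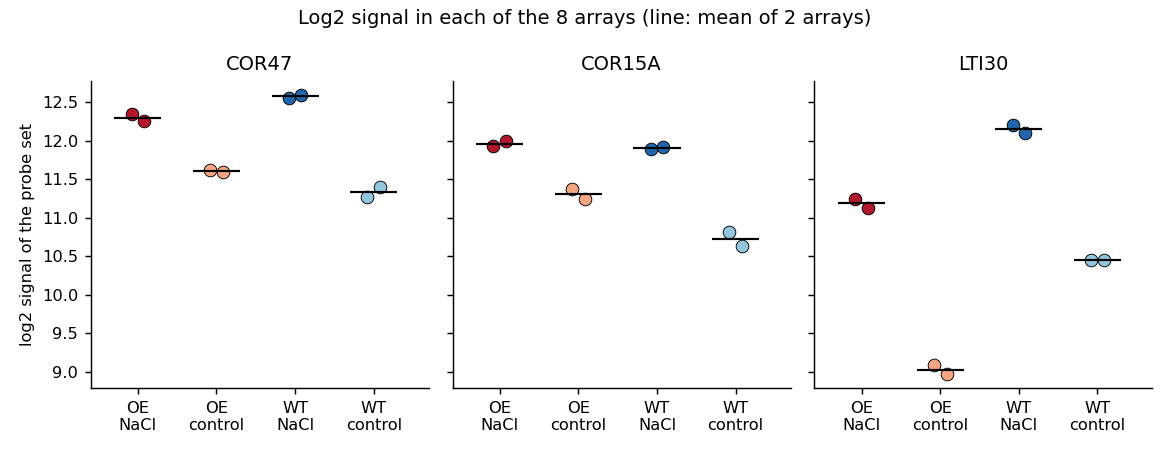
Log2 signal (vertical axis) of COR47, COR15A and LTI30 in each of the 8 arrays, in OE NaCl, OE control, WT NaCl and WT control seedlings, with a point for each array and a line at the mean of 2 arrays. The NaCl points sit above the control points of their genotype in every panel, and for LTI30 the OE points sit below the WT points under both conditions (9.03 against 10.45 on average without salt).

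The 3 genes can be set against the rest of the array. In OE, 4.88% of all probe sets were called higher after NaCl, and in WT 3.26% were. In both genotypes at once 1.67% (379 probe sets) were called higher, and all 3 genes were among them. The 3 genes had been chosen with earlier results known, so their place in this share is only a description. The NaCl arrays lay above the control arrays without overlap for 23.1% of probe sets in OE and 26.8% in WT, so that this separation alone was common. A larger rise than that of LTI30 was seen in 118 probe sets in OE and 183 in WT. For COR47 the number with a larger rise was 1820 in OE and 370 in WT, and for COR15A it was 2007 in OE and 400 in WT. COR47 and COR15A ranked nearer the top of the WT response than of the OE response. No difference between the 2 responses was called for either gene. The arrays of a group were less alike in OE, and the part of this in the ranks was not tested.

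The study's methods set P under 0.05 and a log fold change over 2, without saying whether P was adjusted. This limit was read here as an unadjusted P and the log2 scale. By it, 0.651% of probe sets rose in OE (148) and 0.453% in WT (103). Among the 3 genes LTI30 in OE (2.16) passed it, and the other 5 responses of 0.65 to 1.70 did not. The paper's supplement lists LTI30 as induced by NaCl in the overexpresser and not in WT, so its rise in OE is not an independent result. Here LTI30 also rose in WT (1.70), a rise that was called at the adjusted limit and lay under the fold limit. Averaged over both genotypes, with 4 NaCl and 4 control arrays, the rise was 0.97 ± 0.09 (SE) for COR47, 0.92 for COR15A and 1.93 ± 0.09 for LTI30 (limma adjusted p = 0.00104, 0.00163 and 8.49e-05). These 3 calls were kept without any one array, with adjusted p up to 0.0209, and 6.30% of all probe sets were called higher in this comparison.

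The genotypes differed in LTI30 whether or not salt was given. It was lower in OE than in WT by 2.67-fold without salt (log2 difference -1.42, -1.72 to -1.11, adjusted p = 0.00177, limma) and by 1.95-fold with NaCl (-0.96, -1.26 to -0.66, adjusted p = 0.0049). Without salt 12.0% of all probe sets were called lower in OE, with NaCl 4.92% were, and 3.18% were lower under both conditions. The difference with NaCl was no longer called without either WT NaCl array (adjusted p up to 0.0910). The OE response of LTI30 began from a low level: in OE NaCl it reached 0.74 above WT control (adjusted p = 0.0119, lost without either WT control array, up to 0.0923, a comparison added after the values were seen, in which 5.79% of probe sets were higher), and it stayed below WT NaCl.

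COR15A differed between the genotypes without salt in the other direction. It was 1.49-fold higher in OE than in WT control seedlings (0.58, 0.26 to 0.89, adjusted p = 0.0284, limma), where 8.10% of all probe sets were called higher in OE. This call was lost without any one of the 4 WT arrays or OE control replicate 1, with adjusted p up to 0.147. With NaCl the difference was 0.05, with an interval from -0.26 to 0.37 (adjusted p = 0.829). For COR47 the difference of OE from WT was 0.27 without salt (-0.02 to 0.57, adjusted p = 0.151) and -0.28 with NaCl (-0.57 to 0.02, adjusted p = 0.239), and neither passed the test. After median centring these differences were 0.53 (adjusted p = 0.0504) and -0.16.

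The levels of each gene can be put in order. For LTI30, from low to high, it was OE control, WT control, OE NaCl and WT NaCl, and each neighbouring pair was called different. For COR47 it was WT control, OE control, OE NaCl and WT NaCl, and only the step between OE control and OE NaCl was called. For COR15A it was WT control, OE control, WT NaCl and OE NaCl, where the lowest pair was called different and the highest pair was not. The middle pair, WT NaCl and OE control, did not overlap in its arrays, and no test was set for it.

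Whether the salt response itself differed between the genotypes was tested as OE response minus WT response, and no difference was called for any of the 3. It was -0.55 ± 0.18 (SE) for COR47 (-0.97 to -0.13), -0.53 ± 0.19 for COR15A (-0.97 to -0.08) and 0.46 ± 0.18 for LTI30 (0.03 to 0.89). The limma p before adjustment was 0.0172 for COR47, 0.0265 for COR15A and 0.0397 for LTI30, and after adjustment over all probe sets it was 0.254, 0.309 and 0.358. Of all probe sets, 1.65% (375) were called in this comparison. With an intensity trend in the variance the adjusted p for COR47 was 0.0412. The comparisons share arrays: the NaCl and control arrays of a genotype enter both its salt response and its difference from the other genotype.

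**Figure D2:**
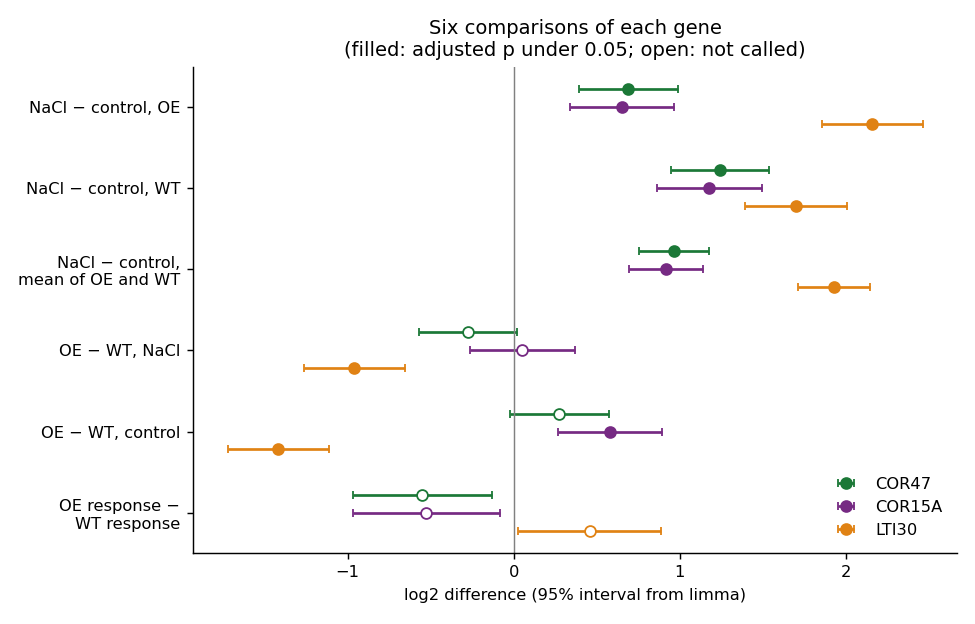
Log2 differences (horizontal axis) of COR47, COR15A and LTI30 in 6 comparisons, with 95% intervals from limma; filled points passed an adjusted p of 0.05 and open points did not. All salt responses lie to the right of 0, LTI30 lies to the left in both comparisons of OE with WT (-1.42 and -0.96), and the 3 points for the difference between responses are open.

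COR15A has a close relative beside it in the genome. In the order of genes of the TAIR10.1 annotation COR15B, which encodes a chloroplast protein of the same family, is its neighbour. COR15B had 9.59 and 9.82 in OE NaCl seedlings and 10.02 and 9.86 in OE control seedlings, and 9.88 and 9.82 in WT NaCl seedlings against 10.50 and 10.39 in WT control seedlings. Its NaCl arrays lay below the control arrays of the same genotype, the opposite of COR15A. Neither response of COR15B passed the test (OE -0.24, adjusted p = 0.359; WT -0.60, adjusted p = 0.0617, limma), while the mean over both genotypes did (-0.42 ± 0.10 SE, adjusted p = 0.0433), where 4.44% of all probe sets were called lower. That call was lost without any one of the 4 WT arrays or OE control replicate 1, with adjusted p up to 0.216.

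The transcripts of COR15A and COR15B are similar in sequence, and how far each probe set also binds the other is not known here. Of the other neighbours, AT1G20430 beside COR47 had a probe set of its own and did not pass the test (0.15 in OE, adjusted p = 0.666; -0.07 in WT, adjusted p = 0.961). ERD10, the dehydrin gene on the other side of COR47, and XERO1, the dehydrin gene beside LTI30, had no probe set that names them alone and were not analysed here.

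The other genes of these families and pathways came from lists, of which only part has a probe set that names the gene alone (27 of 184 genes over all 10 lists). No gene was measured from the 3 lists of abscisic acid synthesis, signalling and transcription factors. Of the 8 other dehydrins 4 were measured. In OE 2 were higher after NaCl and none lower, where 4.88% of all probe sets were called higher. The median of the 4 there was 0.62 against 0.01 for all probe sets. In WT none was higher and 1 was lower, with a median of 0.04 against -0.05, where 2.56% of all probe sets were called lower. The dehydrin gene named LEA was 2.75 higher after NaCl in OE (adjusted p = 0.00255, 0.0519 with the 4 OE arrays alone) and fell by 1.82 in WT (adjusted p = 0.0153, lost without any one WT array, up to 0.149). Its arrays had 8.08 and 8.21 in OE NaCl and 5.88 and 4.92 in OE control, and 5.77 and 5.93 in WT NaCl against 7.53 and 7.79 in WT control, so that it moved in opposite directions in the 2 genotypes, unlike COR47 and LTI30. The paper's supplement lists a dehydrin named LEA as induced by NaCl in the overexpresser and not in WT, so the rise of LEA in OE is not an independent result. AT4G38410, the other dehydrin that rose, changed by 1.07 in OE (adjusted p = 0.0191, lost without any one WT array or OE control replicate 1, up to 0.0862) and had 0.10 in WT. Its OE call was also lost in 5 of 8 alternative runs, with adjusted p up to 0.208. HIRD11 (AT1G54410), a dehydrin known for binding metals, had -0.06 in OE and 0.09 in WT and did not pass the test. The remaining measured dehydrin, AT4G39130, was dim, with group means from 3.93 in WT NaCl to 4.22 in OE NaCl. It had 0.17 in OE and -0.02 in WT and did not pass the test.

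None of the other measured cold-regulated genes was called after NaCl within either genotype, and only COR15B was called in the mean over both. Of 24 listed, 3 were measured (COR15B, COR27 and AT4G33980), with a median response of -0.04 in OE and -0.16 in WT. COR27, a cold-induced gene tied to the circadian clock, had 0.17 in OE (adjusted p = 0.444, limma) and -0.16 in WT (adjusted p = 0.664). Without salt all 3 were lower in OE than in WT: COR15B by -0.51, COR27 by -0.52 and AT4G33980 by -0.59 (adjusted p = 0.0469, 0.0319 and 0.0450), whereas COR15A was higher there. In that comparison 12.0% of all probe sets were called lower in OE. These 3 calls were lost after median centring (adjusted p = 0.202, 0.207 and 0.102) and without any one WT array or OE control array (up to 0.229).

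Of 26 regulators of the CBF pathway 3 were measured, and none was called after NaCl. SIZ1, a SUMO ligase that acts on the CBF activator ICE1, had -0.41 in OE (adjusted p = 0.103) and 0.24 in WT (adjusted p = 0.431). STZ, a zinc finger repressor induced by salt and cold, had 0.04 in OE (adjusted p = 0.914) and -0.13 in WT (adjusted p = 0.885). GI, a clock protein, had -0.22 in OE (adjusted p = 0.431) and -0.20 in WT (adjusted p = 0.687). Between the genotypes, SIZ1 was 0.62 and GI 0.70 higher in OE without salt (adjusted p = 0.0207 and 0.0278, both lost without any one WT array or OE control replicate 1, up to 0.144), where 8.10% of all probe sets were called higher. With NaCl GI was 0.67 higher in OE (adjusted p = 0.0456, lost without any one WT array or OE NaCl replicate 1, up to 0.314), where 4.12% of all probe sets were called higher.

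Most of the measured genes of drought and osmotic stress rose after NaCl. Of 22 listed others 4 were measured. The list was chosen with earlier results of these data known. The paper's supplement names LEA4-5, AT3G02480 and AT2G38905 among its NaCl-induced genes, so their rise is not an independent result. All 4 were higher after NaCl in OE, where 4.88% of all probe sets were, and 3 of them in WT, where 3.26% were. The medians of the 4 genes were 3.60 in OE and 2.25 in WT, against 0.01 and -0.05 for all probe sets. LEA4-5, which encodes a late embryogenesis abundant protein, had 10.59 and 10.11 in OE NaCl seedlings and 5.82 and 6.20 in OE control seedlings, against 10.78 and 10.76 in WT NaCl seedlings and 7.18 and 7.14 in WT control seedlings. It shared with LTI30 a lower level in OE without salt (-1.15, adjusted p = 0.0128, lost without either WT control array or OE control replicate 1, up to 0.107). Its responses were 4.35 in OE and 3.61 in WT. AT3G02480, a gene of the same protein group, rose by 4.49 in OE and 2.11 in WT (adjusted p = 0.000263 and 0.00345, the WT call lost without WT control replicate 1, 0.0534), and AT5G24080 by 2.85 and 2.40. AT2G38905, named as a low temperature and salt responsive protein, was 2.66 higher with salt in OE (adjusted p = 0.00267, 0.0502 with the 4 OE arrays alone), and its WT value of -1.21 did not pass the test (adjusted p = 0.0589).

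**Figure D3:**
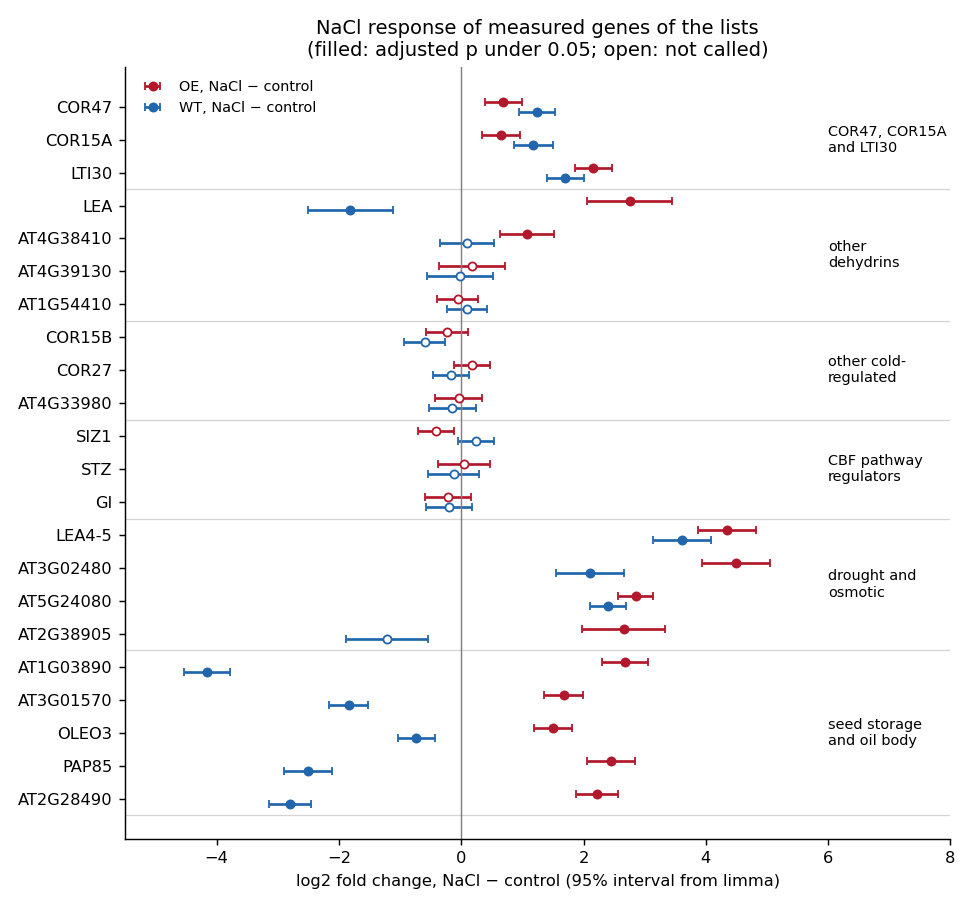
Log2 fold change of NaCl over control (horizontal axis) with 95% intervals from limma in OE and in WT, for COR47, COR15A and LTI30 and for the measured genes of 5 lists; filled points passed an adjusted p of 0.05. COR47, COR15A and LTI30 lie to the right in both genotypes, the cold-regulated and CBF pathway genes lie between -0.60 and 0.24 with open points, and the seed genes lie to the left in WT and to the right in OE (medians -2.51 and 2.22).

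Genes of seed storage and oil bodies, a tissue that seedlings of this age should hold little of, moved with the groups. All 5 measured of 17 (AT1G03890, AT3G01570, OLEO3, PAP85 and AT2G28490) were higher after NaCl in OE and lower in WT, with medians of 2.22 and -2.51 (the WT call of OLEO3 was lost without any one WT array, up to 0.256). Of all probe sets, 4.88% were called higher in OE and 2.56% lower in WT. The summed linear signal of the 5 seed genes was 5941 to 6374 in OE NaCl, 1531 to 1613 in OE control, 694 to 739 in WT NaCl and 2573 to 2709 in WT control. LEA and AT2G38905 were, like the seed genes, highest in OE NaCl and next highest in WT control. COR47, COR15A and LTI30 rose with the seed genes in OE, and in WT they rose where the seed genes fell. LTI30 in OE had a response of 2.16 beside the seed median of 2.22, and in OE minus WT it had -1.42 without salt and -0.96 with NaCl, beside seed medians of -1.20 and 3.59. The part of the seed genes in these results was not tested.

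The genes most like each of the 3 over the 8 arrays were found by Pearson's r among 2697 probe sets that name 1 gene and vary by an SD of at least 0.5. The 8 arrays are 4 groups of 2, so that r mostly describes 4 group means, and the values are given as a description. Those nearest COR47 were AT5G19440 (r = 0.997), AT3G62590 (0.994), AT1G68570 (0.991), AT3G11420 (0.989) and AT2G41730 (0.988). All 5 rose in both genotypes, by 0.69 to 0.88 in OE and 1.28 to 1.86 in WT. The OE calls had adjusted p of 0.0114 to 0.0420, and 4 of them were lost without single arrays (up to 0.135), as was the WT call of AT5G19440 (0.0504).

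Likeness to COR15A was lower. It was 0.969 for AT4G18280, 0.961 for AT3G05640, 0.959 for AT4G20320 and AT2G28400, and 0.955 for NDB2, a mitochondrial NAD(P)H dehydrogenase. These rose by 1.10 to 2.37 in WT. In OE they had 0.42 to 1.55, and AT2G28400 did not pass the test there (adjusted p = 0.0968). The WT calls of AT2G28400 and NDB2 and the OE calls of AT4G20320 and NDB2 were lost without single arrays (up to 0.129).

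Likeness to LTI30 was 0.985 for AT4G39670, 0.984 for ALDH7B4, an aldehyde dehydrogenase that removes reactive aldehydes under stress, 0.983 for AT1G16850, 0.982 for SIS, a salt-induced serine-rich protein, and 0.981 for AT3G15760. The 5 genes rose by 0.91 to 3.84 in OE and 0.71 to 2.75 in WT. In OE minus WT they had -2.15 to -0.49 without salt and -1.06 to -0.38 with NaCl, all in the direction of LTI30. Their choice by likeness over these same arrays favours a shared direction. Without salt the calls of ALDH7B4 and AT3G15760 were lost in 5 and 4 of 9 alternative runs. With NaCl only AT4G39670, AT1G16850 and SIS were called, and each call was lost in 3 of 9 alternative runs. The WT calls of ALDH7B4, SIS and AT3G15760 and the OE call of AT3G15760 were lost without single arrays (up to 0.302).

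**Figure D4:**
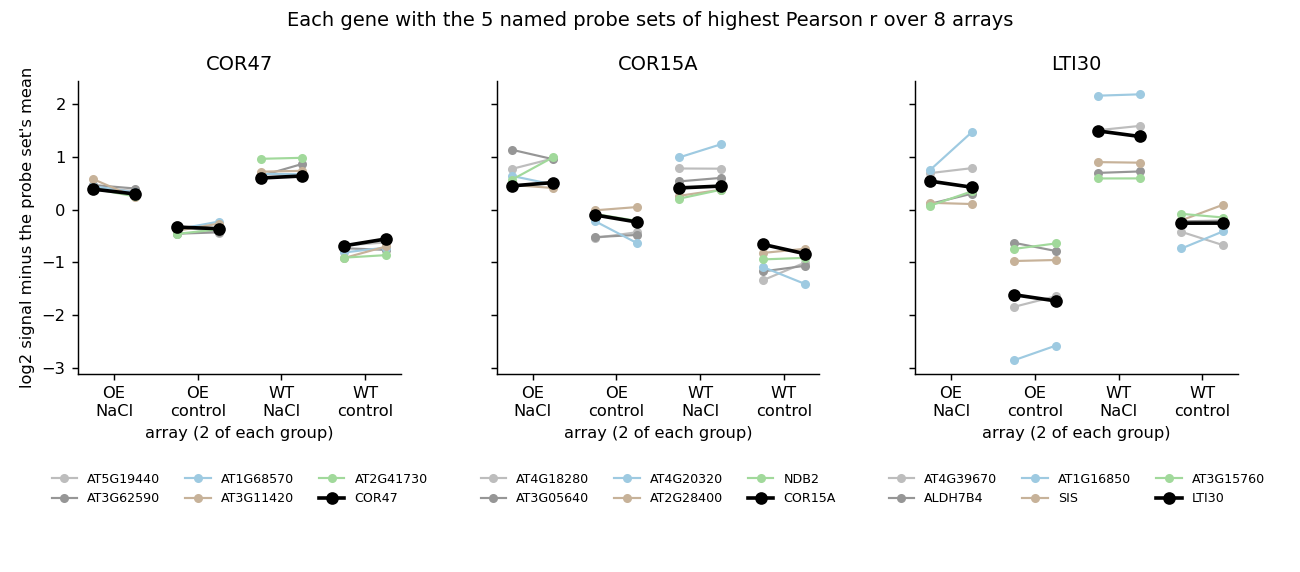
Log2 signal minus the mean of each probe set (vertical axis) in the 8 arrays, for COR47, COR15A and LTI30 (black) and the 5 named probe sets with the highest Pearson r with each (colours); a line joins the 2 arrays of a group. The highest r is 0.997 for COR47, 0.969 for COR15A and 0.985 for LTI30, and the LTI30 panel shows OE control as the lowest group for all 6 genes.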

How the data were processed

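Whole seedlings of 2 genotypes, with or without NaCl, were measured on 8 ATH1 arrays, 2 in each of 4 groups taken from the labels. The deposited signals are log2 values that the authors made with Affymetrix Expression Console, per the labels. The version, normalization and summarization method are not given in the sources used here, and an unstated normalization could shift levels between arrays. Of 22810 deposited probe sets, 22746 were tested, after removal of 64 array controls. A single gene is named for 13513 of them (13436 were found in the RefSeq gene table of TAIR10.1), several genes for 503, and none here for 8730. No further normalization, filter or pseudocount was applied.

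Differences were tested with limma 3.58.1 in R 4.3.3 (1 mean per group, all 8 arrays, Benjamini-Hochberg over all tested probe sets, limit 0.05). The procedure was run on simulated data in which a probe set had the same spread in every group. That simulation does not cover the unequal spread of the OE and WT arrays seen here. The study's methods give triplicate RNA and 1 figure legend another NaCl dose; groups, dose and array numbers follow the labels. The methods' limit was an alternative, as were other fits, scalings and filters, a replicate block and each array left out. Named genes are the 3 genes, all listed genes with a probe set naming them alone (brightest per gene), the genome neighbours and the 5 nearest by Pearson's r. The 3 genes and all lists were chosen with earlier results of these data known. Promoter and protein sequences were not used here. The number of arrays limits the precision.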

Additional observations from a re-analysis of the deposited data

Results flagged for a closer look

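Among 42 named genes, of which 15 were picked from these arrays by likeness, 9 had a salt response that differed between the genotypes by a test of the difference itself (limma, OE response minus WT response, log2, adjusted over all probe sets), where 1.65% of all probe sets were called, and COR47, COR15A and LTI30 were not among them. The dehydrin gene LEA had a difference of 4.57 (adjusted p = 0.0028, lost in 1 of 8 alternative runs, 0.0676), with responses of 2.75 in OE and -1.82 in WT. AT2G38905 had 3.87 (adjusted p = 0.00493, 0.0522 without WT control replicate 2), with 2.66 in OE and -1.21 in WT. AT3G02480 had 2.39 (adjusted p = 0.0185, lost without any one WT array or OE control array, up to 0.132), with 4.49 in OE and 2.11 in WT.

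The 5 seed genes all differed. AT1G03890 had a difference of 6.84 (2.68 in OE, -4.16 in WT, adjusted p = 5.16e-05). AT3G01570 had 3.51 (1.67 in OE, -1.84 in WT, adjusted p = 0.000231), and the oleosin gene OLEO3 had 2.23 (1.50 in OE, -0.74 in WT, adjusted p = 0.00176). PAP85 had 4.95 (2.45 in OE, -2.51 in WT, adjusted p = 0.000136), and AT2G28490 had 5.01 (2.22 in OE, -2.80 in WT, adjusted p = 7.23e-05). These 5 calls were kept without any one array.

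AT2G41730, 1 of the genes most like COR47, had a difference of -1.12 (adjusted p = 0.0324), with 0.74 in OE and 1.86 in WT. It was lost without any one WT array or OE control array (up to 0.267). Its probe set carries the suffix for probes shared with other transcripts, so its signal may come from more than 1 gene.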

How the results depend on the processing

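Alternatives were run for all values of COR47, COR15A and LTI30 and, for the other named genes, for called values only, and none of these changed sign. For COR47, COR15A and LTI30, 301 values kept their side of the limit, 48 lost a call and 2 gained one, and for the other named genes 1591 kept it and 414 lost a call. Fitting only the 4 arrays compared left out the call of COR47 in OE (0.69), of COR15A in OE (0.65) and of LTI30 in OE NaCl over WT control (0.74), and array weights left out the same 3 (0.69, 0.65 and 0.74). Median centring, which moved the median of all probe sets to -0.16 in the OE response and 0.24 in OE minus WT without salt, left out COR47 in OE (0.52) and COR15A in OE (0.48). An intensity trend added calls for COR47 in OE minus WT without salt (0.27, adjusted p = 0.0339) and in the difference between responses (-0.55). Replicate numbers did not pair the arrays (r of deviations -0.20 to 0.18). With the replicate block COR15A in OE kept its value (0.65) and lost its call (adjusted p = 0.0605), and no other call of the 3 genes changed. The methods' fold limit left LTI30 in OE called and removed the others: in COR47 1.24 in WT, 0.69 in OE, 0.97 on average and 0.97 in OE NaCl over WT control; in COR15A 1.18, 0.65, 0.92 and 1.23, and 0.58 in OE minus WT without salt; in LTI30 1.70 in WT, 1.93 on average, 0.74 in OE NaCl over WT control, and -1.42 and -0.96 in OE minus WT without and with salt.

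Without single arrays, calls changed for COR47 in WT (1.18 to 1.31) and OE (0.64 to 0.74), COR15A in WT (1.09 to 1.27), OE (0.58 to 0.72) and OE minus WT without salt (0.49 to 0.67), and LTI30 in OE minus WT with NaCl (-1.02 to -0.90) and OE NaCl over WT control (0.68 to 0.80). The count of called probe sets ranged over the alternatives from 171 to 2030 for the OE response (1642 as reported), 148 to 5899 for WT (1324), 285 to 6608 for OE minus WT without salt (4580), 315 to 2415 with NaCl (2057), 185 to 456 for the difference between responses (375), 79 to 2913 for the mean response (2443) and 315 to 3294 for OE NaCl over WT control (2782). Without single arrays these counts were 656 to 6018, 258 to 2346, 420 to 8696, 563 to 7057, 122 to 2294, 751 to 6375 and 874 to 6990. The cause was not tested. Averaging several probe sets per gene gave no value, since each gene has 1. With 2 arrays per group the precision is limited, and signal over background cannot be read from these values.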
